A study of Homo sapiens with 15 samples.

Results

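Nucleotide supply and uracil removal were followed through 9 genes chosen by name: RRM1, RRM2, RRM2B, TYMS, TK1, DCTD, DUT, SAMHD1 and UNG, out of 60558 genes in the table. The table holds RNA-seq values from 15 libraries of RPE1-hTERT cells, a non-transformed human cell line from the retinal pigment epithelium that telomerase keeps dividing. The cells carry a doxycycline-inducible cDNA of CCNE1, the gene of cyclin E1, in the vector pINDUCER20. Control cells received 0 ng/ml doxycycline, and all induced cells received 20 ng/ml. By the sample labels, acute cells had 2 days of doxycycline, crisis cells 15, 18 and 18 days, and adapted cells 39, 41 and 51 days. Recovery cells had 31, 42 and 46 days of doxycycline followed by 18, 46 and 17 days without it. Each group has 3 libraries. The construct is present in control cells too, the inducible line was isolated as a clone, and the days on the labels differ from those in the study's text for crisis, adapted and recovery cells, so they serve here only to name the groups. The 9 genes were compared over the groups to see how the mRNAs that make and clean up DNA precursors stood before, during and after cyclin E1 induction.

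Ribonucleotide reductase converts ribonucleotides into deoxyribonucleotides, and its activity rises as cells enter S phase. Thymidylate synthase and thymidine kinase then supply the thymidine nucleotide, while dUTPase keeps dUTP out of the pool and uracil DNA glycosylase removes uracil that has reached DNA. Several of these genes are classical targets of E2F, the transcription factor that cyclin E and CDK2 release from the retinoblastoma protein, and RRM2B is a target of p53.

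Values are TPM, the share of each gene's transcripts among all transcripts of a library, which are scaled by transcript length and so allow genes to be compared with each other. Read depth cannot be recovered from TPM and is unknown. CCNE1 was at 7.09, 6.27 and 7.88 TPM in control cells, and at 163, 154 and 136 TPM in acute, 44.9, 32.9 and 38.9 TPM in crisis, 43.3, 42.6 and 42.6 TPM in adapted and 5.52, 5.49 and 5.93 TPM in recovery cells, which follows the labels, although transgene and endogenous mRNA share 1 row. Of the pigment epithelium markers, RPE65 was at 0 TPM in every library and RLBP1, BEST1, TYR, TYRP1 and PMEL reached at most 1.51 TPM, while MITF, OTX2 and PAX6 stood between 13.2 and 37.1 TPM. The epithelial keratins KRT8 and KRT18 were at 293 to 568 TPM, but KRT19 at up to 0.643 TPM and EPCAM and CDH1 at up to 0.369 TPM. Of the mesenchymal genes, VIM was at 3924 to 4936 TPM, COL1A1 at 9.41 to 27.5 TPM and COL1A2 at up to 0.264 TPM. The leukocyte genes PTPRC and LYZ were at up to 0.177 and 0.371 TPM, whereas CD68 of the same list was at 44.1 to 73.9 TPM. The libraries did not share 1 relation between expression and GC content, with a Spearman rho across 10185 genes, of GC content against a library's deviation from the mean, between 0.72 (control replicate 1) and −0.58 (adapted replicate 3), so the differences of the 9 genes from control are also given after that trend was removed. The 3 recovery libraries had rho of −0.29, −0.47 and −0.49, against 0.72, 0.61 and −0.14 in the control libraries, and the GC content of the 9 genes ran from 39.7% in RRM2B to 61.3% in TK1.

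All 9 genes were well expressed. By the mean over the 15 libraries, RRM2 stood highest at 228 TPM, followed by TYMS at 214, DUT at 202, RRM1 at 141, DCTD at 106, TK1 at 84.5, UNG at 46.8, RRM2B at 24.4 and SAMHD1 at 17.9 TPM. Within a library, RRM2 was above TYMS in 13 of 15 libraries, TYMS above DUT in 11 and RRM2B above SAMHD1 in 14, so these neighbours changed places in some. The other neighbours, from DUT to RRM2B, stood in this order in 15 of 15 libraries, although the ranges of DCTD and TK1 and of TK1 and UNG overlapped between libraries. All 9 had a mean of at least 5 TPM, and so all 9 were among the 10196 genes tested.

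**Figure D1:**
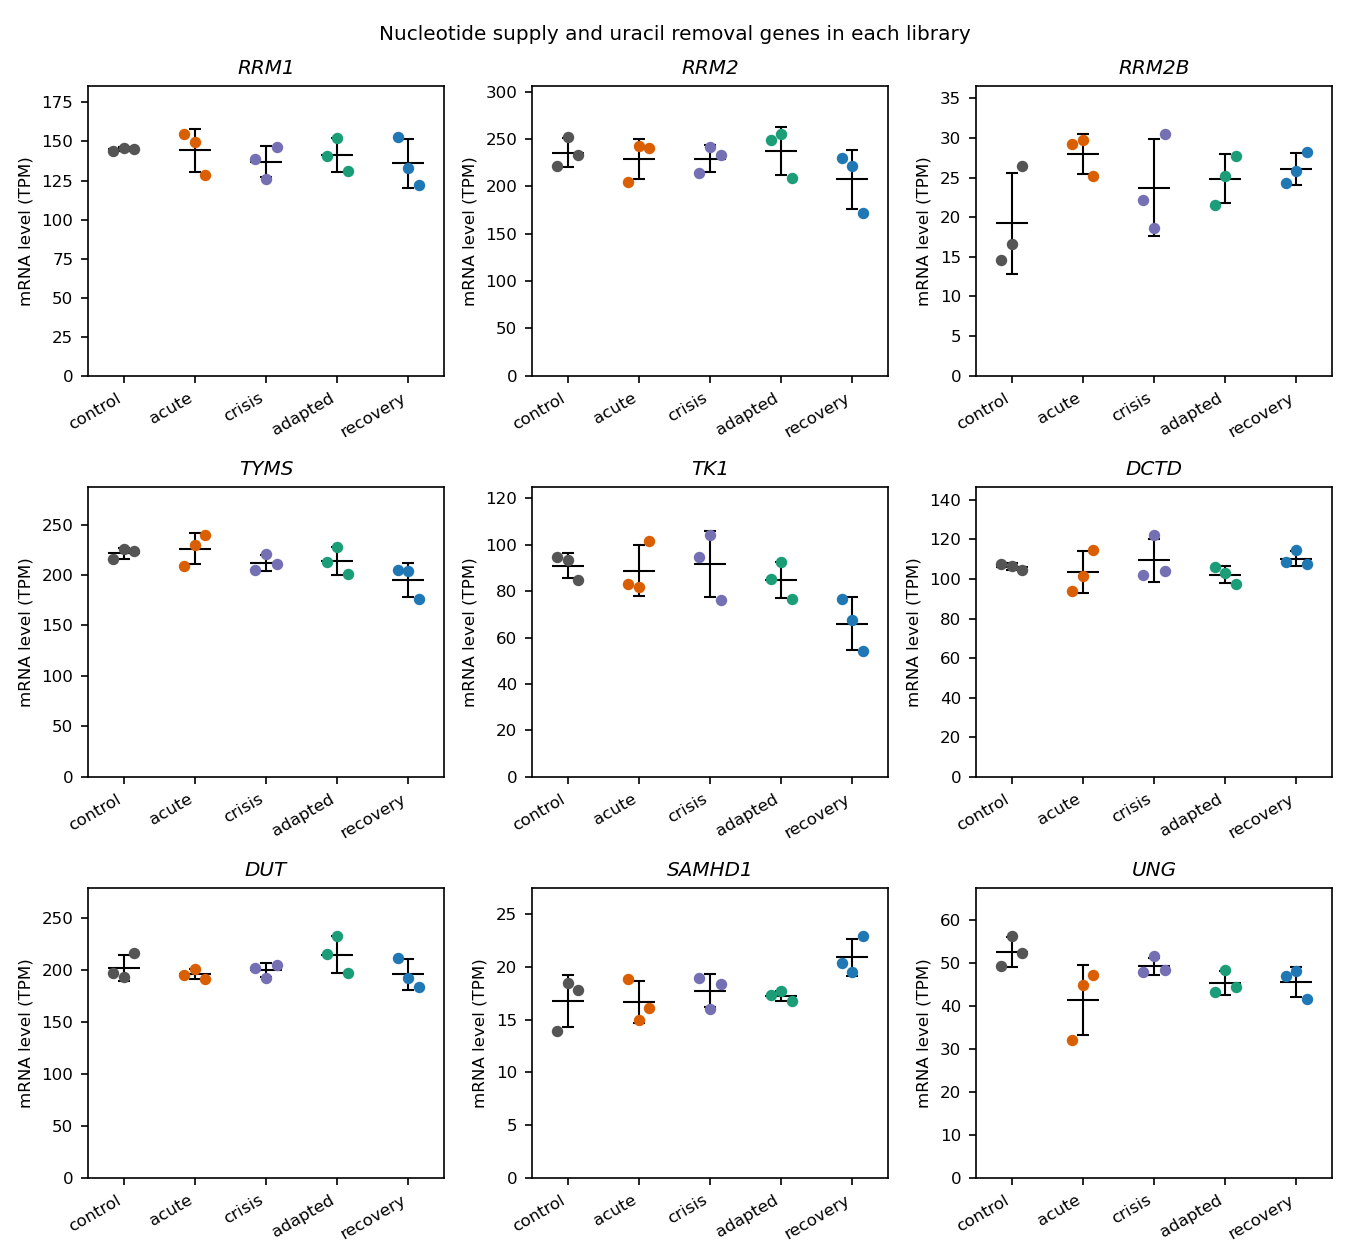
Each panel shows 1 gene, with the mRNA level in TPM on the vertical axis from 0 and the 5 groups along the horizontal axis. Points are the 3 libraries of a group, horizontal bars their mean, and whiskers the SD. RRM1, DUT and DCTD stay within a narrow band, TK1 is lowest in recovery cells, UNG lies below the control libraries in most others, and RRM2B is spread widely among control libraries.

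Some stretches before the transcription starts hold the kinds of elements known from cell cycle genes, whereas the DCTD windows hold none. Elements are shown for the genes whose levels went together over the libraries (RRM2, TYMS and TK1), for UNG and SAMHD1, which left the control range, and for DUT, the partner of UNG. RRM1, with 1 CHR element and 1 CCAAT box, is not shown. Sequences are from RefSeq on GRCh38.p14, cover the 250 bases before each start, and are cut to bases outside annotated UTRs or to sites of at most 30 bases. Capitals mark an E2F-type element (TTTCCCGC, TTTCGCGC, TTTGGCGC or TTTGCCGC), a CHR element (TTTGAA or TTCGAA) or a CCAAT box, each searched on both strands, and no capital letters of 2 elements overlap.
TYMS, chr18:657403-657652, plus strand: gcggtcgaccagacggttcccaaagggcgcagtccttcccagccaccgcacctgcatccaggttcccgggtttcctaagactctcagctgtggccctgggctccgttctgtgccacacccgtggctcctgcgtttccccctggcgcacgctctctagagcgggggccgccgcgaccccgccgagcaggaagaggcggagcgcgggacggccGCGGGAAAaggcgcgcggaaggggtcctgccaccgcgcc
UNG, chr12:109097922-109098117, plus strand: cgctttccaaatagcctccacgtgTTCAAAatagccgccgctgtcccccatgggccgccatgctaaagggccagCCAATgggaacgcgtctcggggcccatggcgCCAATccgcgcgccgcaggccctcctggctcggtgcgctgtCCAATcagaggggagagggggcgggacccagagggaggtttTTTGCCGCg
DUT, chr15:48332152-48332181, plus strand: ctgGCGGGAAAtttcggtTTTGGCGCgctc
RRM2, chr2:10122606-10122630, plus strand: caaggcgcagCCAATgggaagggtc
RRM2, chr2:10122636-10122660, plus strand: catggcacagCCAATgggaagggcc
RRM2, chr2:10122663-10122687, plus strand: ggcaccaaagCCAATgggaagggcc
TK1, chr17:78187115-78187139, minus strand: ccgggcgctgATTGGccccatggcg
TK1, chr17:78187084-78187108, minus strand: ccggctcgtgATTGGccagcacgcc
SAMHD1, chr20:36951735-36951764, minus strand: caggaggCCAATaggctgCCAATactcctt
RRM2 carries 3 CCAAT boxes in the window shown, each followed by gggaaggg, and 1 more that begins 249 bases before another annotated start, TK1 carries 2 boxes that read ATTGG on the gene's own strand, and SAMHD1 carries 2. In UNG the E2F-type element begins 63 bases before the start and lies nearer to it than 3 CCAAT boxes, and in TYMS it begins 39 bases before. Of the 8 genes with a window (15 windows, none for RRM2B), 3 held an E2F-type element, against 3.40% of 27305 genes searched alike. A CHR element was in 3 of the 8, against 17.2%, and a CCAAT box in 5, against 37.0%. The 27305 genes had 35116 windows, so the 8 genes had more windows per gene in which to match. Of those 35116 windows, 2.79% held an E2F-type element, 14.3% a CHR element and 32.0% a CCAAT box. In UNG and DUT the windows before the other annotated starts held no E2F-type element. A match describes letters and not binding.

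In the comparison of induced and recovered cells with control cells, none of the 9 mRNAs passed the test. Limma on log2(TPM + 1), with Benjamini-Hochberg adjustment over all 10196 genes and a call at an adjusted p under 0.01, called 0 of 9 in acute (0.049% of all tested genes called), 0 of 9 in crisis (0.0392%), 0 of 9 in adapted (0.049%) and 0 of 9 in recovery cells (0.0392%). It also called 0 of 9 in adapted against acute (0.0196%), in crisis against acute (0.00981%), in adapted against crisis (0%) and in recovery against adapted cells (0.0294%). The F test over all 5 groups called 0 of 9 (0.0687%), with 1 of 9, TK1, at an unadjusted p under 0.05 (17.1% of all tested genes) and an adjusted p of 0.200. With few genes called anywhere, a missed threshold does not show that a level was the same, so 95% intervals are given below. Each interval is for 1 gene alone, is not adjusted for the number of genes or comparisons, and comes from TPM before GC correction. Libraries are bulk, so fewer cells in S phase and less of an mRNA in each cell cannot be told apart.

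At an unadjusted p under 0.05, 1 of the 9 genes was higher in acute cells (RRM2B, with 7.52% of all tested genes) and 1 was lower (UNG, with 1.67%). In crisis cells 0 were higher (9.32%) and 0 lower (1.83%), and in adapted cells 0 were higher (11.4%) and 0 lower (9.01%). In recovery cells 2 were higher (RRM2B and SAMHD1, with 19.7%) and 2 were lower (TK1 and TYMS, with 8.88%). The median log2 fold change of the 9 was −0.04 for acute cells, where the median of all tested genes was 0.06. It was −0.02 beside 0.08 for crisis cells, −0.04 beside 0.05 for adapted cells and −0.10 beside 0.08 for recovery cells. After GC correction the recovery genes at an unadjusted p under 0.05 were 4 lower (RRM1, RRM2, TYMS and TK1, with 3.15% of 10185 genes) and 0 higher (13.5%), and none was called. Without recovery replicate 3 the corrected log2 fold changes were −0.12 for RRM1, −0.13 for RRM2, −0.09 for TYMS and −0.10 for TK1. In acute cells RRM2B was again higher (8.03%) and UNG lower (1.15%), and the corrected counts were 0 higher (12.6%) and 0 lower (2.08%) in crisis cells and 0 higher (8.15%) and 0 lower (4.73%) in adapted cells.

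**Figure D2:**
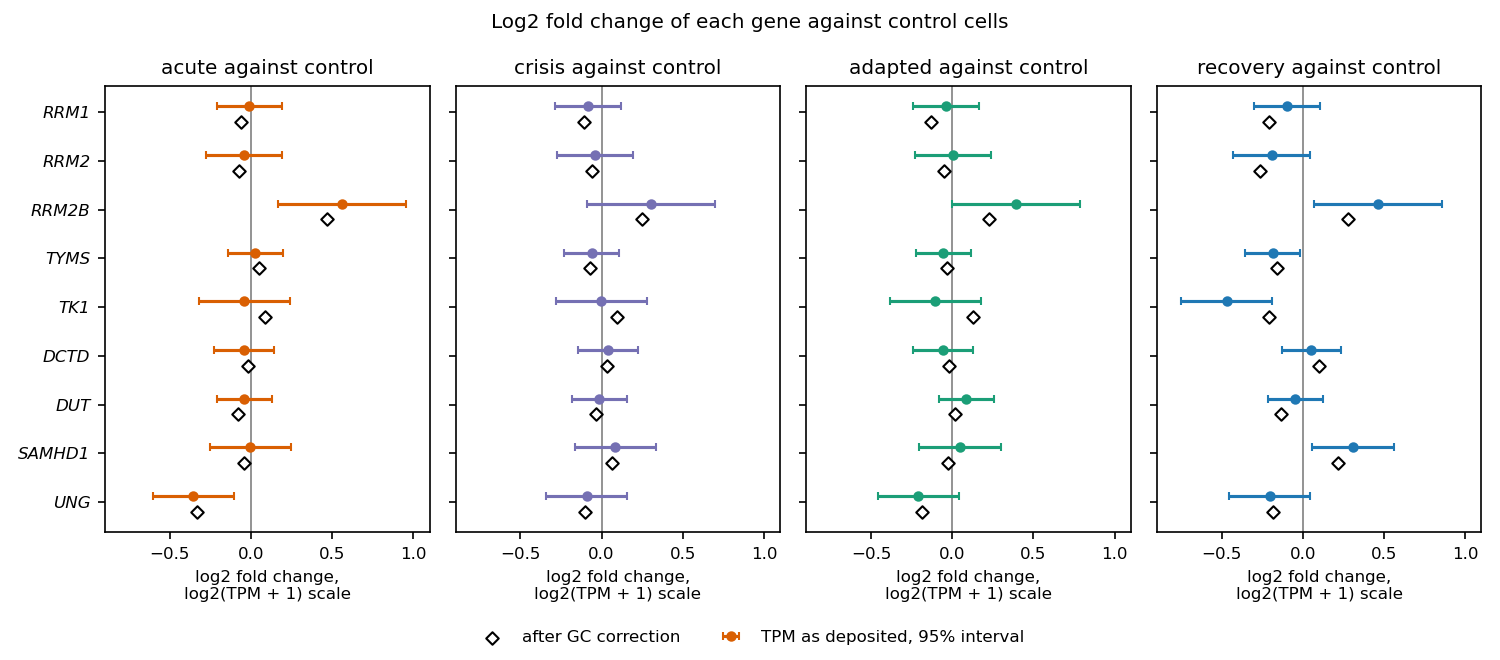
Log2 fold changes of the 9 genes on the log2(TPM + 1) scale, with 1 panel for each group against control cells. Filled circles with whiskers are the estimates from the deposited TPM with 95% intervals, and open diamonds are the estimates after GC correction. Most intervals include 0, and in recovery cells the TK1 estimate of −0.47 stands at −0.21 after the correction.

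RRM1, the large catalytic subunit of ribonucleotide reductase (chromosome 11, 4094707 to 4138932, plus strand of hg38), was at 144, 146 and 145 TPM in control cells, and at 155, 149.9 and 129 TPM in acute, 139, 126 and 146 TPM in crisis, 141, 152 and 131 TPM in adapted and 153, 133 and 122 TPM in recovery cells. The control libraries had a coefficient of variation of 0.885%, where the median tested gene had 10.0%. The other groups had 7.39% to 11.4%, beside medians of 8.39% to 9.66% for tested genes, and each group overlapped control. Log2 fold changes lay between −0.10 (recovery, 95% interval −0.30 to 0.10) and −0.01 (acute, −0.21 to 0.19). After GC correction they were −0.06 in acute cells, −0.11 in crisis cells, −0.13 in adapted cells and −0.21 in recovery cells (adjusted p = 0.271 by limma), and without recovery replicate 3 the uncorrected recovery value was −0.03. Over all 15 libraries the highest RRM1 value was 1.26 times the lowest, against 1.53 times for the median tested gene.

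RRM2, the small subunit that is made for S phase and limits the enzyme in dividing cells (chromosome 2, 10120698 to 10211725, plus strand), was the most abundant of the 9. Its level was 222, 252 and 234 TPM in control cells, and 205, 242 and 240.5 TPM in acute cells, 214, 242 and 233 TPM in crisis cells, 249, 255 and 209 TPM in adapted cells and 230.1, 221 and 172 TPM in recovery cells. Each group overlapped control, and the lowest value of all was recovery replicate 3. The log2 fold change was −0.04 in acute (95% interval −0.28 to 0.19), −0.04 in crisis (−0.27 to 0.20), 0.01 in adapted (−0.23 to 0.24) and −0.19 in recovery cells (−0.43 to 0.04, adjusted p = 0.256). Without recovery replicate 3 the last value was −0.06, and after GC correction with all libraries it was −0.26, beside −0.07 for acute, −0.06 for crisis and −0.05 for adapted cells.

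RRM2B, the alternative small subunit that p53 induces and that serves resting and damaged cells (chromosome 8, 102204502 to 102238961, minus strand), was the most variable of the 9. It was at 14.6, 16.6 and 26.5 TPM in control cells, and at 29.2, 29.7 and 25.1 TPM in acute, 22.1, 18.6 and 30.5 TPM in crisis, 21.6, 25.2 and 27.8 TPM in adapted and 24.3, 25.8 and 28.3 TPM in recovery cells. Control replicates 1 and 2 lay below every other library, but control replicate 3 lay within the range of the acute libraries, so no group was clear of control. That library also differed from the other control libraries in its GC trend, with a rho of −0.14 against 0.72 and 0.61, and RRM2B has the lowest GC content of the 9.

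The log2 fold change of RRM2B was 0.56 in acute cells (SE 0.19, 95% interval 0.17 to 0.96, adjusted p = 0.398 by limma) and 0.47 after GC correction. It was 0.31 in crisis (−0.09 to 0.70), 0.39 in adapted (−0.00 to 0.79) and 0.46 in recovery cells (0.07 to 0.86, adjusted p = 0.128), and 0.25, 0.23 and 0.28 in the same groups after GC correction. Without control replicate 3 the value was 0.64 in adapted cells, with an adjusted p of 0.044, and 0.71 in recovery cells, with an adjusted p of 0.0233. In acute cells it was then 0.81, with an adjusted p of 0.0751. CDKN1A, a p53 target that restrains CDK2, was called in acute cells, at 139, 139 and 163 TPM in acute against 79.9, 83.5 and 70.5 TPM in control cells (log2 fold change 0.91, adjusted p = 2.09e-04 by limma, or 1.00 after GC correction). A p53 target list that includes CDKN1A was written with earlier results of these data known, so its counts only describe it. Of its 8 tested genes, 8 were higher at an unadjusted p under 0.05 in acute cells, where 7.52% of all tested genes were. Crisis cells had 2 of the 8 (9.32%), adapted cells 5 (11.4%) and recovery cells 3 (19.7%). These counts were taken before GC correction, and the part of p53 in the RRM2B values was not tested. The correction moved the list's median log2 fold change from 0.34 to 0.20 for recovery and from 0.39 to 0.28 for adapted cells. For crisis cells that median went from 0.24 to 0.20, and for acute cells from 0.64 to 0.56. CDKN1A alone had −0.20 in recovery cells (−0.01 after GC correction), 0.11 in adapted cells (0.28) and 0.31 in crisis cells (0.37). In the same acute libraries FAS, a death receptor gene, was at 40.7, 35.1 and 32.2 TPM, against 18.3, 19.9 and 24.8 TPM in control cells, with a log2 fold change of 0.75 and an adjusted p of 0.0914, or 0.66 and 0.0108 after GC correction.

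The balance of the small subunits was read as the ratio of RRM2 to RRM2B within each library, which no scaling of the library can move, although a GC trend can. It was 15.2, 15.2 and 8.83 in control cells, and 7.002, 8.15 and 9.57 in acute cells, 9.66, 13.0 and 7.65 in crisis cells, 11.5, 10.1 and 7.52 in adapted cells and 9.49, 8.57 and 6.08 in recovery cells. The highest values were those of control replicates 1 and 2, and control replicate 3 fell among the other groups. The log2 difference from control was −0.63 in acute cells (−0.54 after GC correction) and −0.36 in crisis cells (−0.31). It was −0.41 in adapted cells (−0.28) and −0.68 in recovery cells (−0.54). Exact permutation tests of 3 against 3 libraries, 2-sided, gave p = 0.2 for acute, 0.3 for crisis, 0.3 for adapted and 0.2 for recovery cells, where 0.1 is the smallest p this design allows. The ratio of RRM2 to RRM1, the partners of the S phase enzyme, averaged 1.63 ± 0.09 in control cells, 1.60 ± 0.27 in acute cells, 1.68 ± 0.20 in crisis cells, 1.68 ± 0.09 in adapted cells and 1.53 ± 0.13 in recovery cells (SD, n = 3 each), with exact permutation p between 0.4 and 0.9. These are ratios of mRNA, and RRM2 protein is also controlled by degradation.

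**Figure D3:**
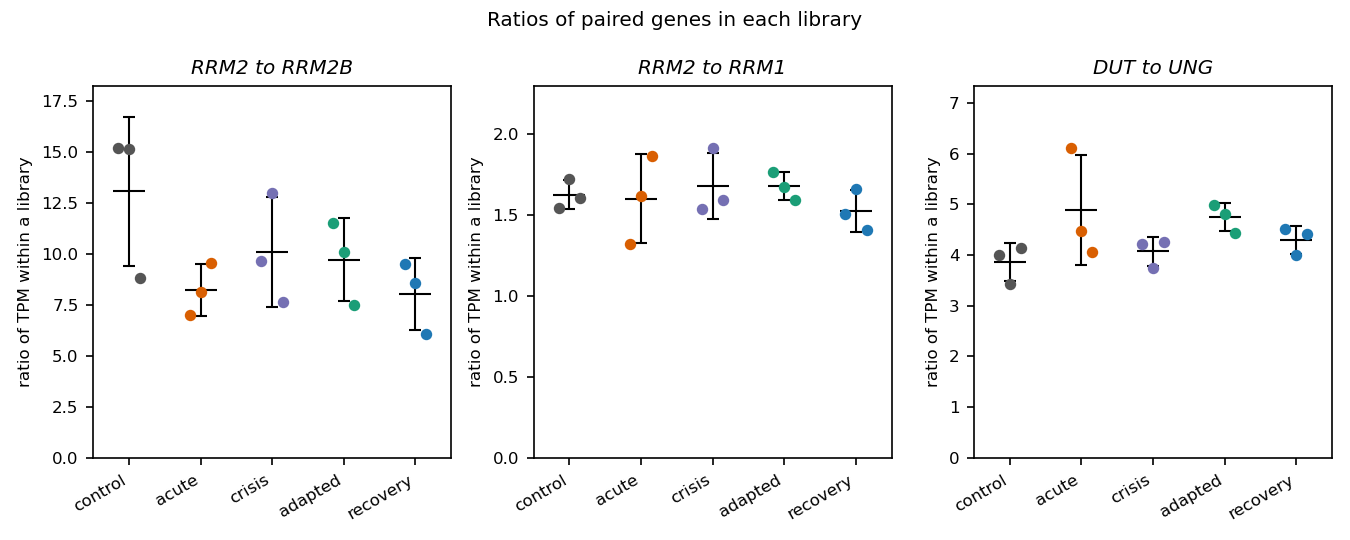
Ratios of TPM within each library, on vertical axes that start at 0, for RRM2 to RRM2B, RRM2 to RRM1 and DUT to UNG. Points are libraries, bars the group mean and whiskers the SD over 3 libraries. The RRM2 to RRM2B ratio is near 15 in 2 control libraries and between 6.08 and 13.0 elsewhere, and the DUT to UNG ratio of the adapted libraries lies above that of the control libraries.

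TYMS, thymidylate synthase, makes dTMP from dUMP and is the target of fluoropyrimidine drugs (chromosome 18, 657653 to 673578, plus strand). Its mRNA was at 216, 226 and 223 TPM in control cells, and at 209, 230.2 and 239 TPM in acute, 205, 221 and 211 TPM in crisis, 213, 228 and 201 TPM in adapted and 205, 204 and 176 TPM in recovery cells. The recovery libraries all lay below the control libraries, and the other groups overlapped control. The log2 fold change in recovery cells was −0.19 (SE 0.08, 95% interval −0.36 to −0.02, adjusted p = 0.148 by limma), or −0.16 after GC correction and −0.11 without recovery replicate 3. In acute, crisis and adapted cells it lay between −0.06 and 0.03, with intervals inside −0.23 to 0.20, and between −0.07 and 0.05 after GC correction. No source used here says whether strand was used in counting, so TYMS reads and reads from the other strand cannot be told apart. ENOSF1, a coding gene on the opposite strand that overlaps TYMS, was at 6.99 to 10.2 TPM, and the antisense RNA TYMSOS at 0.996 to 2.62 TPM.

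TK1, cytosolic thymidine kinase, salvages thymidine and is one of the most used markers of proliferation (chromosome 17, 78174091 to 78187233, minus strand). TK1 stood at 94.9, 93.5 and 84.8 TPM in control cells, and at 83.3, 81.7 and 101 TPM in acute, 94.5, 104 and 76.2 TPM in crisis, 85.1, 92.7 and 76.8 TPM in adapted and 76.7, 67.4 and 54.2 TPM in recovery cells. The 3 recovery libraries lay below all control libraries, and the only induced library as low as recovery replicate 1 was crisis replicate 3, whereas the acute, crisis and adapted groups each overlapped control. The mean in recovery cells was 66.1 ± 11.3 TPM, against 91.1 ± 5.44 TPM in control cells (SD, n = 3 each).

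The TK1 difference between recovery and control cells was the nearest of the 9 genes to a call, with a log2 fold change of −0.47 (SE 0.13, 95% interval −0.75 to −0.19, adjusted p = 0.0685 by limma). After GC correction it was −0.21 (adjusted p = 0.290), and TK1 has the highest GC content of the 9. Recovery replicate 3, the lowest library, carried part of the difference: without it the value was −0.34 (adjusted p = 0.253), and −0.10 when both were done. Against adapted cells, recovery cells had a log2 fold change of −0.37 (adjusted p = 0.507), which was −0.33 after GC correction, and TK1 was the 1 gene of 9 lower there at an unadjusted p under 0.05 (2.06% of all tested genes). In acute, crisis and adapted cells the log2 fold changes against control were −0.04, −0.00 and −0.10, with intervals between −0.38 and 0.28, and all turned sign after GC correction, to 0.09, 0.09 and 0.13.

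DCTD, dCMP deaminase, provides the dUMP that thymidylate synthase uses (chromosome 4, 182890060 to 182917936, minus strand). It was at 108, 107 and 104 TPM in control cells, and at 93.7, 102 and 115 TPM in acute, 102, 122 and 104 TPM in crisis, 106, 103 and 97.6 TPM in adapted and 109, 115 and 107 TPM in recovery cells. Every group overlapped control, and the log2 fold changes ran from −0.06 in adapted to 0.05 in recovery cells, with intervals inside −0.24 to 0.24. After GC correction they ran from −0.02 in adapted to 0.10 in recovery cells. The highest DCTD library was 1.30 times the lowest.

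DUT, dUTPase, hydrolyses dUTP to dUMP and so both feeds thymidylate synthesis and keeps uracil from DNA (chromosome 15, 48331011 to 48343373, plus strand). Nuclear and mitochondrial forms come from 1 gene and are not separated in the table. DUT was at 197, 193 and 216 TPM in control cells, and at 196, 201 and 191 TPM in acute, 202, 192 and 205 TPM in crisis, 215, 232 and 197 TPM in adapted and 212, 192 and 183 TPM in recovery cells. Every group overlapped control, with log2 fold changes from −0.05 in recovery (95% interval −0.22 to 0.12) to 0.09 in adapted cells (−0.08 to 0.26). After GC correction they were −0.13 in recovery and 0.02 in adapted cells. Pseudogene rows named for DUT were all under 1 TPM, the highest DUTP6 at 0.822 TPM, and the antisense RNA DUT-AS1 at up to 2.27 TPM.

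SAMHD1, the dNTP hydrolase that drains the pool outside S phase and restricts viruses (chromosome 20, 36890229 to 36951893, minus strand), had the lowest level of the 9. It was at 13.9, 18.5 and 17.9 TPM in control cells, and at 18.9, 15.0 and 16.1 TPM in acute, 19.0, 15.97 and 18.3 TPM in crisis, 17.3, 17.7 and 16.7 TPM in adapted and 20.4, 19.5 and 22.9 TPM in recovery cells. The 3 recovery values were above every value of the other 4 groups, and how many of all tested genes did so was not counted. SAMHD1 was the 1 gene of 9 whose recovery libraries all lay above the control libraries, as did 18.8% of all tested genes. The log2 fold change in recovery cells was 0.31 against control (SE 0.12, 95% interval 0.06 to 0.56, adjusted p = 0.116 by limma), 0.22 after GC correction and 0.25 without recovery replicate 3. Against adapted cells it was 0.26 (adjusted p = 0.692, 0.24 after GC correction), and SAMHD1 was the 1 gene of 9 higher there at an unadjusted p under 0.05 (4.98% of all tested genes). In the induced groups it lay between −0.00 and 0.09, with intervals inside −0.26 to 0.34, and between −0.05 and 0.07 after GC correction.

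UNG, uracil DNA glycosylase, excises uracil from DNA and starts base excision repair (chromosome 12, 109097597 to 109126725, plus strand). Its nuclear and mitochondrial forms are not separated in the table. UNG was at 49.3, 56.2 and 52.2 TPM in control cells, and at 32.0, 44.9 and 47.2 TPM in acute, 47.8, 51.5 and 48.3 TPM in crisis, 43.2, 48.4 and 44.4 TPM in adapted and 47.0, 48.1 and 41.6 TPM in recovery cells. Of the 12 libraries outside control, 11 were below all 3 control libraries, the exception being crisis replicate 2. The same count was 8 for TYMS, 7 for RRM1 and 7 for TK1, and 0 for RRM2B and SAMHD1. It was not taken over all tested genes. UNG was the 1 gene of 9 whose libraries all lay below control in acute cells, as in 2.35% of all tested genes, and the 1 of 9 in adapted cells, as in 10.5%. In recovery cells 3 of the 9 did so (TYMS, TK1 and UNG), as in 10.1%.

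The log2 fold change of UNG was −0.36 in acute cells (SE 0.12, 95% interval −0.61 to −0.11, adjusted p = 0.398 by limma) and −0.34 after GC correction. It was −0.09 in crisis (−0.34 to 0.16), −0.21 in adapted (−0.46 to 0.04) and −0.20 in recovery cells (−0.45 to 0.05), and −0.10, −0.19 and −0.18 in the same groups after GC correction. The lowest library, acute replicate 1, set the size of the acute difference, which was −0.19 without it (adjusted p = 0.903). Crisis cells had 0.26 more on the log2 scale than acute cells (adjusted p = 0.920), or 0.09 without acute replicate 1, and UNG was the 1 gene of 9 higher there at an unadjusted p under 0.05 (3.18% of all tested genes). Comparisons with control share the same 3 control libraries, so the low values in several groups are not separate observations. ACACB, which overlaps UNG on the same strand, was at 1.83 to 7.40 TPM.

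The ratio of DUT to UNG, the enzymes that keep uracil out of DNA and remove it from there, was 4.01, 3.43 and 4.14 in control cells, and 6.11, 4.47 and 4.06 in acute cells, 4.22, 3.74 and 4.25 in crisis cells, 4.98, 4.80 and 4.44 in adapted cells and 4.51, 3.99 and 4.41 in recovery cells. The 3 adapted values lay above the 3 control values, and the other groups overlapped control. The exact permutation p, 2-sided, was 0.1 for adapted cells, the smallest that 3 against 3 allows, 0.2 for acute, 0.5 for crisis and 0.3 for recovery cells. After GC correction the log2 difference in adapted cells was 0.21, beside 0.30 before it.

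RRM2, TYMS and TK1 went together over the 15 libraries. Pearson's r of log2(TPM + 1) was 0.87 between RRM2 and TYMS, 0.81 between TYMS and TK1 and 0.70 between RRM2 and TK1, while SAMHD1 ran the other way, with −0.68 against TYMS and −0.67 against TK1. RRM1 had r of 0.43, 0.37 and 0.22 with RRM2, TYMS and TK1, and DUT had 0.55, 0.35 and 0.26 with the same genes. RRM2B had r of −0.55 with TK1, −0.51 with UNG and −0.31 with RRM2. The libraries share their groups and GC trends, so these values only describe them. Recovery replicate 3 was the lowest library for 5 of the 9 genes (RRM1, RRM2, TYMS, TK1 and DUT), as for 11.99% of all tested genes, and the highest for SAMHD1.

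Among all tested genes, those whose pattern over the 15 libraries was most like RRM2 were PSAT1, an enzyme of serine synthesis (r = 0.95), RCC1, the exchange factor of Ran (0.93), and PA2G4 (0.92). For RRM2B they were OGA, which removes O-GlcNAc (0.95), TRUB1, a pseudouridine synthase (0.94), and UPF3A (0.94). UNG was nearest to MCM3, a subunit of the replicative helicase (0.88), ZMYND19 (0.88) and SLBP, which binds histone mRNA (0.87). For SAMHD1 they were HS2ST1 (0.89), PDE1C (0.87) and ARHGAP10 (0.87).

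The wider pathway was read from 62 genes in 6 lists, of which 58 were tested and 0 were called in any comparison by limma. Of all tested genes, 0% to 0.049% were called in a comparison. With an unadjusted p under 0.05, acute cells had 1 of the 58 higher (7.52% of all tested genes) and 2 lower (1.67%), and crisis cells had 2 higher (9.32%) and 1 lower (1.83%). Adapted cells had 3 higher (11.4%) and 7 lower (9.01%), and recovery cells had 3 higher (19.7%) and 11 lower (8.88%). The uracil repair list, with SMUG1, TDG, APEX1, POLB and other genes that act beside or after UNG, had 12 of 12 tested, 0 at an unadjusted p under 0.05 in acute, crisis and adapted cells, and 1 lower in recovery cells. That gene was FEN1, the flap endonuclease, at 81.5, 78.2 and 57.1 TPM in recovery against 86.8, 96.4 and 88.7 TPM in control cells. Its log2 fold change was −0.34 (adjusted p = 0.0949 by limma), or −0.25 after GC correction (adjusted p = 0.227).

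**Figure D4:**
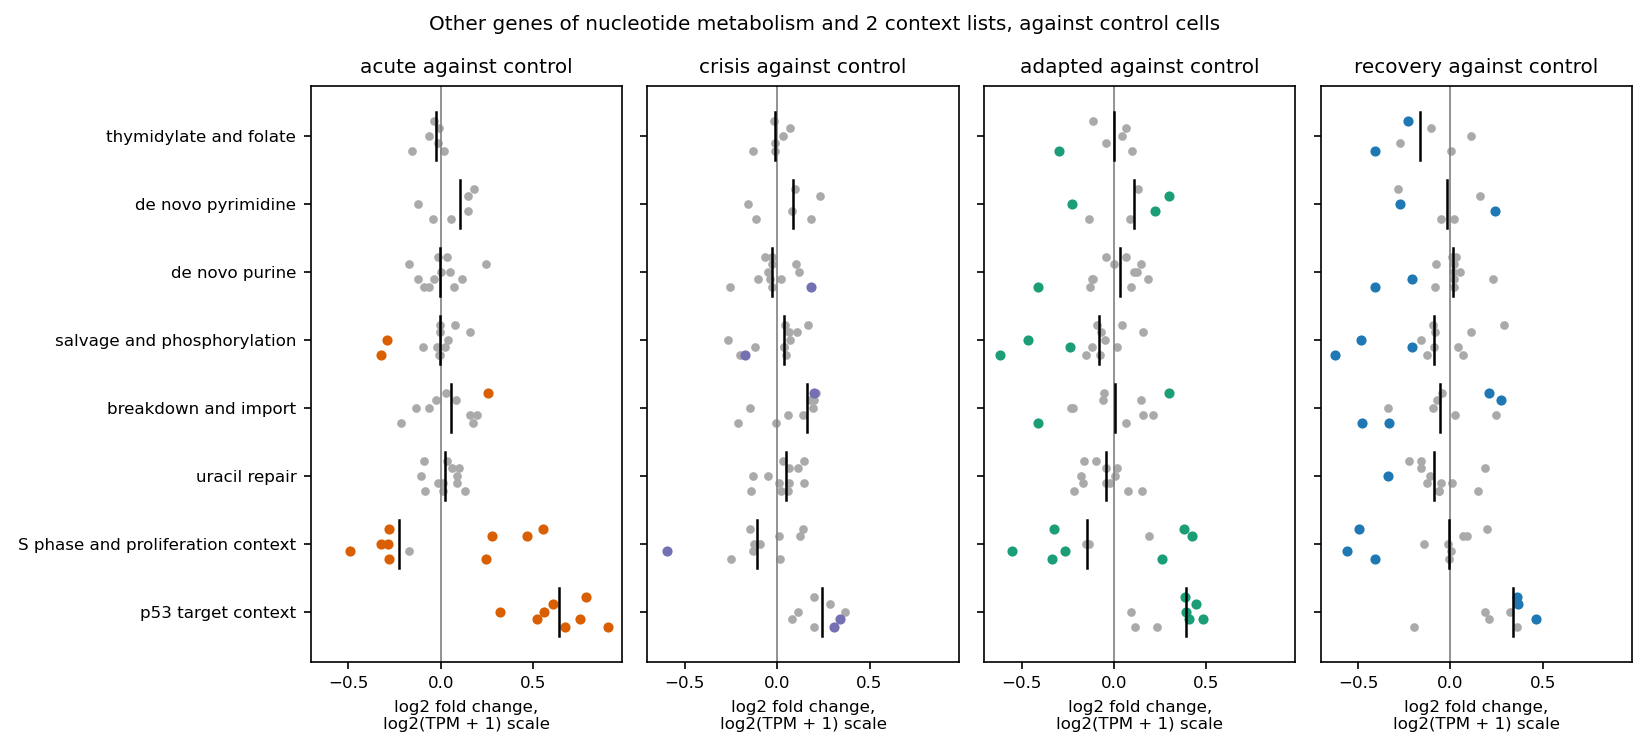
Log2 fold changes against control cells on the log2(TPM + 1) scale for the 6 lists of nucleotide metabolism and repair and the 2 context lists, with 1 panel for each group. Each point is a tested gene, coloured points have an unadjusted p under 0.05, grey points do not, and black bars are list medians. The p53 target list lies furthest to the right in acute cells, with a median of 0.64, while the 6 pathway lists have medians between −0.17 and 0.16 in all 4 groups.

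The lowest p of the wider pathway belonged to GUK1, guanylate kinase, which phosphorylates GMP and dGMP. GUK1 was at 179, 166 and 159 TPM in control cells, and at 126, 121 and 157 TPM in acute, 143, 165 and 130.4 TPM in crisis, 109, 120 and 98.5 TPM in adapted and 104, 105 and 116 TPM in recovery cells. Every adapted library lay below every control library, as in 10.5% of all tested genes, and so did every recovery library, as in 10.1%. The log2 fold change was −0.32 in acute, −0.20 in crisis, −0.62 in adapted (adjusted p = 0.0254 by limma) and −0.63 in recovery cells (adjusted p = 0.0237), short of the threshold of 0.01, and the adapted and recovery values were −0.35 and −0.32 after GC correction in a gene of 63.0% GC.

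APRT, the adenine salvage enzyme (GC content 64.0%), was at 56.4, 56.5 and 48.8 TPM in recovery against 82.3, 80.6 and 65.1 TPM in control cells. Its log2 fold change of −0.48 (adjusted p = 0.0672 by limma) was −0.15 after GC correction (adjusted p = 0.388). NUDT1, which clears oxidized nucleotides (GC content 59.0%), was at 28.0, 28.2 and 24.5 TPM in recovery against 35.6, 35.1 and 31.6 TPM in control cells. Its log2 fold change was −0.33 (adjusted p = 0.0649 by limma) and −0.13 after GC correction (adjusted p = 0.346). NT5E, the surface nucleotidase, went the other way, with 363, 390 and 370 TPM in adapted against 282, 298 and 335 TPM in control cells. Its log2 fold change was 0.30 (adjusted p = 0.102 by limma), or 0.22 after GC correction (adjusted p = 0.166).

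The genes of S phase entry and of later cell cycle stages give a setting for these values. A proliferation list had 10 tested genes and 0 called, where 0% to 0.049% of all tested genes were called in a comparison. At an unadjusted p under 0.05, acute cells had 4 of the 10 higher (7.52% of all tested genes) and 5 lower (1.67%), crisis cells 0 higher (9.32%) and 1 lower (1.83%), adapted cells 3 higher (11.4%) and 4 lower (9.01%), and recovery cells 0 higher (19.7%) and 3 lower (8.88%). TOP2A, which acts in G2 and mitosis, was at 351, 239.9 and 223 TPM in acute against 184, 158 and 202 TPM in control cells. Its log2 fold change was 0.56 (adjusted p = 0.249 by limma), or 0.45 after GC correction (adjusted p = 0.154). CDC6, which loads the MCM helicase and is an E2F target, was at 52.99, 59.9 and 61.3 TPM in acute against 65.4, 76.4 and 76.9 TPM in control cells. Its log2 fold change was −0.32 (adjusted p = 0.418 by limma), or −0.36 after GC correction (adjusted p = 0.313). MCM5, a subunit of that helicase, was at 77.5, 71.4 and 57.5 TPM in recovery against 108, 115 and 84.2 TPM in control cells. Its log2 fold change was −0.56 (adjusted p = 0.0403 by limma), and −0.39 after GC correction (adjusted p = 0.0677). The part of these shifts in the values of RRM2, TYMS, TK1 and UNG was not tested.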

How the data were processed

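RNA-seq was measured in 15 libraries, which the labels put in 5 groups of 3. The authors ran kallisto against hg38 on single-end reads and deposited TPM for each gene, and columns of their own DESeq2 fold changes and adjusted p-values were not used. Their strand setting is not stated in the sources used here. Of 60603 rows, 45 duplicate pseudoautosomal copies were dropped, and 60261 of 60558 genes were matched to GENCODE 44 for positions and GC content. The members and lists were chosen with earlier results of these data known, and genes named beside the members are the lowest p of each list and the closest patterns. Values were analysed as log2(TPM + 1), which understates changes of low genes, where the mean over the libraries reached 5 TPM, in R 4.3.3 with limma 3.58.1 (5 groups, variance trend, Benjamini-Hochberg, 2-sided). The study's methods call the cultures independent, whereas the labels only number them, so p-values measure the spread between these libraries. GC correction subtracted a loess (span 0.3) on gene GC content from each library. The alternatives were other pseudocounts, filters, scaling, a replicate block, no trend, fewer libraries and each library left out, and leaving out recovery replicate 3 with GC correction was chosen after seeing the data. Values simulated on the log2(TPM + 1) scale, with independent noise, no GC trend and known shifts in acute libraries, were used to check the model. It called 23 of 67 genes at a shift of 0.5, 57 of 67 at 1 and 66 of 66 at 2, with 1 of 9996 unshifted genes. Other tools were pandas 2.3.3 and matplotlib 3.10.9.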

Additional observations from a re-analysis of the deposited data

How the results depend on the processing

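Across the alternatives 0 of 9 genes reached an adjusted p under 0.01 in any of the 8 comparisons or in the F test, and 0 of 9 at 0.05 in the fit as reported. Of 1872 log2 fold changes under 26 settings, 5 had an adjusted p under 0.05 by limma: TK1 in recovery against control cells with median-of-ratios rescaling (−0.55, 0.0467), without control replicate 3 (−0.52, 0.0352) and without recovery replicate 1 (−0.58, 0.0462), and RRM2B without control replicate 3 in adapted (0.64, 0.044) and recovery cells (0.71, 0.0233). Over all settings the adjusted p of TK1 in recovery cells ran from 0.0352 to 0.718.

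The sign turned in 94 of the 1872, at a size of at most 0.13 under the setting and an adjusted p of at least 0.496, and the cause was not tested. In 9 of them the value also moved by at least 1 SE: TK1 in adapted against control cells after GC correction (0.13), with the block and GC correction (0.13) and without recovery replicate 3 with GC correction (0.12), TK1 in adapted against crisis cells under the same settings (0.034, 0.034 and 0.033), SAMHD1 without control replicate 1 in adapted (−0.072) and crisis cells (−0.035) against control, and UNG in adapted against acute cells without acute replicate 1 (−0.025). With the other libraries left out in turn, the last 3 values reached up to 0.12, 0.16 and 0.25. Whether replicate numbers pair the libraries stayed unsettled. Of 30 same-number pairs, 11 had a correlation of deviations over 0.1 (from −0.44 to 0.34), and in no comparison did all pairs. The median correlation was 0.049 for the same number and −0.025 for different numbers, and GC trends were not removed from these values. With the replicate number as a block, 0 of 9 genes were called, and TK1 in recovery cells kept −0.47 with an adjusted p of 0.058. Depth is unknown, so its part in the precision cannot be given, and the 95% intervals cover only the spread between libraries.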
